A study of Sus scrofa with 12 samples.

Results

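CIRBP (ENSSSCG00000053466) and RBM3 (ENSSSCG00000021591), the 2 classical genes for cold-induced RNA-binding proteins, were compared between fresh and vitrified pig blastocysts. Vitrification is cooling so rapid that water turns to glass without forming ice. Both genes were chosen by name, and each symbol matched 1 of the 31781 Ensembl gene identifiers in the deposited table. The blastocysts were parthenogenetic, that is, grown from eggs activated without sperm. Labels describe 12 libraries in 4 groups of 3, of which 11 were analysed: fresh control (replicates 1 to 3), vitrification (replicates 1 and 2), vitrification I (replicates 1 to 3) and vitrification II (replicates 1 to 3). The labels do not say how the 3 vitrified groups differed in procedure or when embryos were collected after warming. Liquid helium is named in the series title but tied to no group. Libraries were made by Smart-Seq2, which amplifies cDNA from poly(A) RNA of very small inputs, here with 22 PCR cycles and 150-bp paired reads. The source is given as blastocyst while the protocol speaks of sorted single cells. Nothing in the labels says that the libraries of a group came from separate embryos, and the p-values below therefore rest on differences among libraries that could be technical.

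CIRBP and RBM3 are small relatives, each with an RNA recognition motif (RRM) at the amino terminus and a glycine-rich tail. Both mRNAs rise in many mammalian cells under mild hypothermia, in contrast to the heat shock genes. The proteins bind mRNAs and influence their stability, translation and polyadenylation site choice, and CIRBP moves into stress granules when its arginines are methylated. RBM3 is X-linked in mammals. In mild cold, SR proteins and their CLK kinases take part in temperature-dependent splicing, and the level of RBM3 mRNA is set in part by an alternative exon that leads to its decay. None of this was measured here, since the table gives 1 value per gene and does not separate the transcripts. RefSeq lists 19 transcripts of CIRBP and 4 of RBM3. Reads shared with near-identical copies or with overlapping genes on the other strand could not be told apart.

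Libraries differed in ways that touch every level below. Values are FPKM (fragment counts scaled by gene length and by library size); count tables were not analysed here, so sequencing depth is unknown. The share of FPKM from the 13 protein-coding genes of the mitochondrial genome ran from 37.6% to 43.9% in fresh control, was 38.7% and 51.8% in the vitrification libraries, and ran from 43.8% to 64.3% for vitrification I and from 16.9% to 22.1% for vitrification II. Genes above 0 FPKM numbered 11550 and 12340 in vitrification I replicates 3 and 1, 14039 in replicate 2 of that group, and 15383 to 18527 in the other libraries. Trophectoderm markers were expressed in all libraries: the 11 of 12 listed genes with an identifier summed to 10609 to 15736 FPKM in fresh control, 6843 and 17321 in the vitrification libraries, 2764 to 6091 for vitrification I and 14099 to 22401 for vitrification II. Inner cell mass markers (7 of 10; POU5F1 and SOX2 matched no identifier) summed to between 46.6 and 297 FPKM over all libraries and hypoblast markers (8 of 9) to between 14.9 and 66.1, with FOXA2 at 0 throughout. Cumulus markers (7 of 9) reached at most 4.03 FPKM with HAS2 and PTX3 at 0. Leukocyte and erythroid markers (9 of 9) reached at most 20.2 with PTPRC, ALAS2 and HBM at 0, and maternal oocyte markers (8 of 8) at most 17.2 with ZP3 and NLRP5 at 0. In such samples, fewer cells of a type and less RNA per cell cannot be told apart.

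RBM3 was an abundant transcript in each library and stood lowest in vitrification I. In fresh control its level was 186, 243 and 159.7 FPKM in replicates 1, 2 and 3, with a mean of 197 ± 42.8 (SD, n = 3). Vitrification gave 214 and 219 FPKM (217 ± 3.81, SD, n = 2). Vitrification I gave 101, 72.7 and 45.8 FPKM (73.3 ± 27.8, SD, n = 3). Its highest library lay below the lowest library of each other group. The share of all genes that separate groups in this way was not counted, here or for the separations given below. In vitrification II the levels were 190.3, 202 and 422 FPKM (271 ± 130.5, SD, n = 3), and replicate 3 stood well above every other library while replicates 1 and 2 fell among the control values. By group mean the order was vitrification I, fresh control, vitrification and vitrification II, and the last 3 overlapped or differed by less than their spread.

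CIRBP ran far lower, and its replicates were more scattered relative to the group differences. In fresh control its level was 2.32, 7.18 and 5.54 FPKM (5.01 ± 2.47, SD, n = 3), with replicate 1 well under the other two. Vitrification gave 6.30 and 7.49 FPKM (6.89 ± 0.840, SD, n = 2). Vitrification I gave 3.26, 3.12 and 1.90 FPKM (2.76 ± 0.749, SD, n = 3). This range overlapped that of fresh control only through control replicate 1, and it lay below all libraries of vitrification and vitrification II. Vitrification II gave 3.97, 4.52 and 9.56 FPKM (6.02 ± 3.08, SD, n = 3), again with replicate 3 highest. Vitrification I replicate 3 held the lowest value and vitrification II replicate 3 the highest value of both genes among the 11 libraries. From lowest to highest library CIRBP spanned 5.03-fold and RBM3 9.22-fold.

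**Figure D1:**
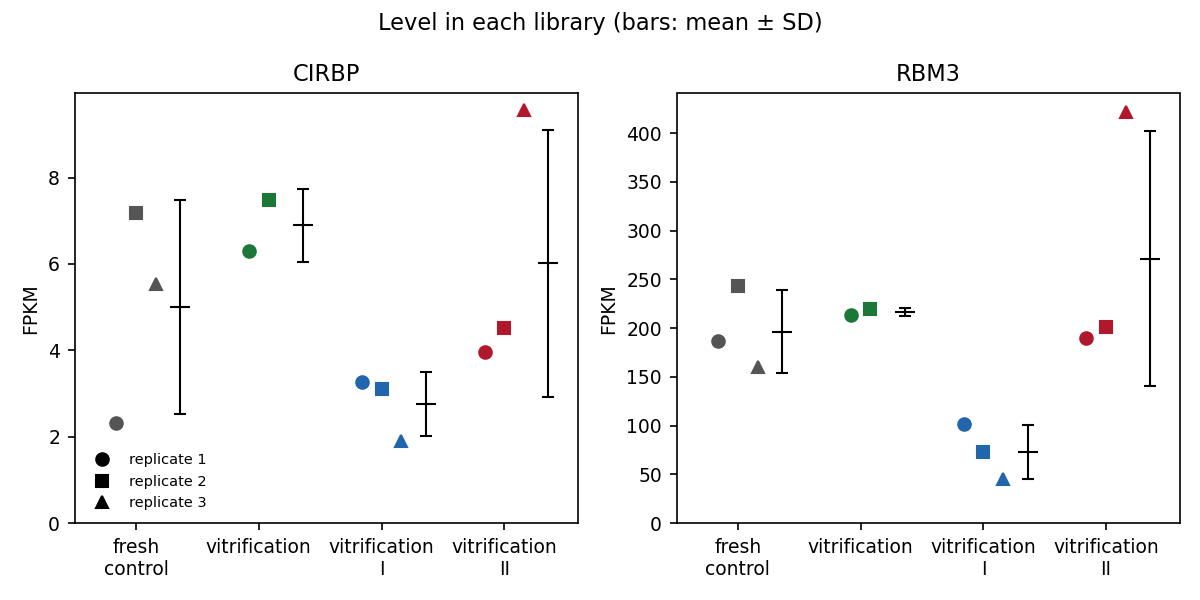
FPKM of CIRBP (left) and RBM3 (right) in each of the 11 libraries, by group on the horizontal axis. Symbols mark the replicate number and black bars the group mean ± SD. All 3 vitrification I points of RBM3, at 45.8 to 101 FPKM, sit under every other point of that panel, while CIRBP in fresh control replicate 1 (2.32 FPKM) sits among the vitrification I points.

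The first question was whether the pair differed between each vitrified group and fresh embryos. Tests were run on log2(FPKM + 1) for all 9411 genes with at least 1 FPKM in at least 3 libraries, which included both members, with an adjusted p under 0.05 as the threshold for a call (limma, Benjamini-Hochberg over these genes). RBM3 fell in vitrification I against fresh control by 1.46 ± 0.39 on the log2 scale (SE; 95% interval -2.29 to -0.63; adjusted p = 0.0181), and the mean FPKM of fresh control was 2.68 times that of vitrification I. In this comparison 9.77% of all genes were called lower, so a fall was not rare, and 6.68% of genes had a more negative change than RBM3. That share depends on the constant added: with 0.1 instead of 1 it was 16.6%, at a change of -1.47 for RBM3. The median gene moved by -0.06. The call ended without control replicate 2 (-1.30; adjusted p = 0.0820), without vitrification I replicate 3 (-1.16; adjusted p = 0.0657), with vitrification I represented by replicate 2 alone (-1.40; adjusted p = 0.165) and with no filter on low values (adjusted p = 0.0768). With libraries rescaled to equal FPKM outside the mitochondrial genome, the change was -0.97 (95% interval -1.75 to -0.19; adjusted p = 0.0720). On that scale vitrification I still lay lowest, at 68.3, 79.2 and 138 FPKM against 143 to 210.0 in fresh control. The same 3 libraries had the lowest trophectoderm marker sums (at most 6091 FPKM, against at least 6843 elsewhere) and 2 of them the highest mitochondrial shares (58.9% and 64.3%). The rescaling concerned the mitochondrial share only, whose part in the lower RBM3 level was not tested further. The part of the trophectoderm marker level was not tested.

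CIRBP was not called in that comparison. Its change was -0.60 ± 0.42 (95% interval -1.50 to 0.30; adjusted p = 0.338), an interval that holds both no difference and a fall as large as the estimate for RBM3. Against fresh control, neither gene was called in vitrification, where 1.37% of genes were called in either direction. RBM3 changed there by an estimated 0.16 ± 0.44 (95% interval -0.77 to 1.09; adjusted p = 0.890) and CIRBP by 0.49 ± 0.47 (-0.52 to 1.49; adjusted p = 0.634). Nor was either called in vitrification II, where 25.7% of genes were called in either direction. The estimates in vitrification II were 0.38 ± 0.39 for RBM3 (95% interval -0.45 to 1.22; adjusted p = 0.479) and 0.24 ± 0.42 for CIRBP (-0.66 to 1.13; adjusted p = 0.697). Both lay under the median gene of that comparison, which stood 0.62 higher in vitrification II. Without vitrification II replicate 3 the estimates were 0.017 and -0.10.

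The vitrified groups were then compared with each other, which uses no fresh library as reference. RBM3 was higher in vitrification II than in vitrification I by 1.85 ± 0.39 on the log2 scale (95% interval 1.01 to 2.68; adjusted p = 0.00226), with group means 3.70-fold apart and no overlap between the 3 libraries of each. In this comparison 34.7% of all genes were called higher and 3.75% lower, and the median gene stood 0.68 higher. Relative to that median RBM3 was 1.16 higher, and 12.8% of genes had a larger change. With 0.1 added to FPKM instead of 1, these values were 0.91 and 26.1%. The call was kept under all 18 alternatives, with changes from 1.21 to 2.11 and adjusted p from 0.00222 to 0.0471. The share of higher genes among those called rested on the scaling: it was 90.2% with FPKM as deposited, 48.2% after quantile normalization and 68.6% after rescaling to the non-mitochondrial total. RBM3 was higher under each of these scalings.

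Vitrification I also lay under vitrification in RBM3, by 1.62 ± 0.44 (95% interval -2.55 to -0.69; adjusted p = 0.0428), with 2.96-fold between the means. Of all genes 4.42% were called lower in this comparison. The call ended in 11 of 18 alternatives, with adjusted p from 0.0322 to 0.272 over all of them. Among these were leaving out either vitrification library (0.157 without replicate 1 and 0.172 without replicate 2), control replicate 2 or 3 (0.0548 and 0.0585), vitrification I replicate 1 or 3 (0.0624 and 0.104) and vitrification II replicate 2 (0.0551). CIRBP had a change of -1.09 ± 0.47 there (95% interval -2.09 to -0.08; adjusted p = 0.178), which did not pass. Between vitrification II and vitrification I its change was 0.84 ± 0.42 (-0.06 to 1.73; adjusted p = 0.129), close to the shift of the median gene, and the adjusted p over the 18 alternatives ran from 0.0901 to 0.941. Between vitrification II and vitrification, where 5.98% of genes were called in either direction, RBM3 had 0.22 ± 0.44 (adjusted p = 0.766) and CIRBP -0.25 ± 0.47 (adjusted p = 0.755). Over all 4 groups, the F test called RBM3 (adjusted p = 0.00733) and not CIRBP (adjusted p = 0.195), and it called 42.7% of all genes. With vitrification I represented by replicate 2 alone, the F test did not call RBM3 (adjusted p = 0.0760).

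**Figure D2:**
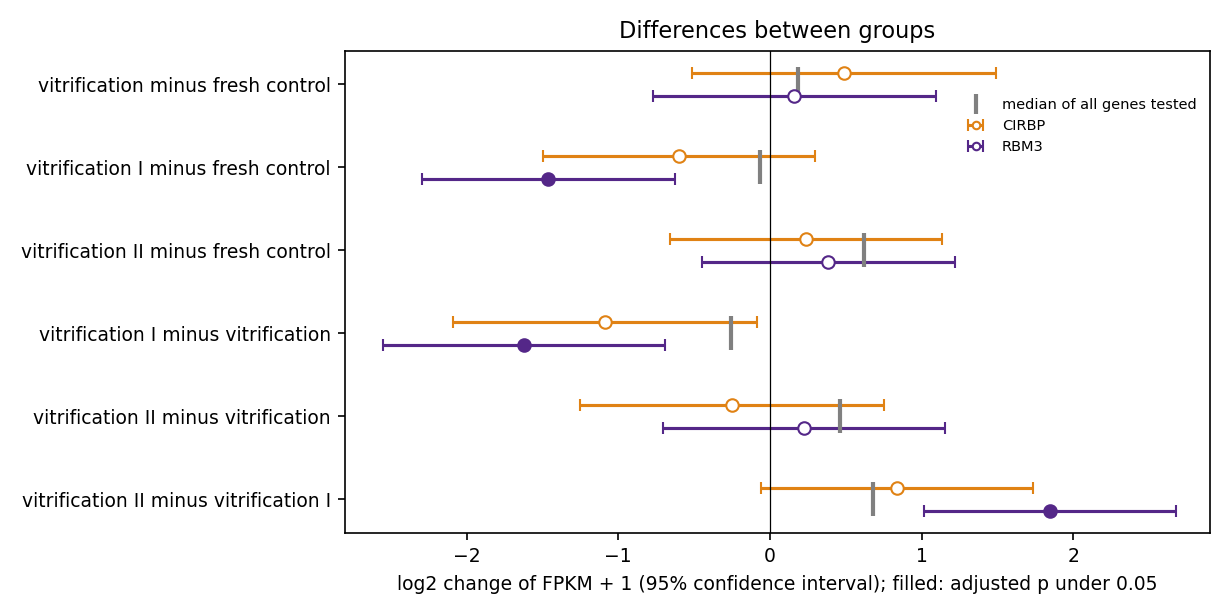
Log2 change of FPKM + 1 (horizontal axis) with its 95% confidence interval in the 6 comparisons between groups, for CIRBP (orange) and RBM3 (purple), with filled points for an adjusted p under 0.05. Grey bars give the median change of the 9411 genes tested, which lay 0.68 higher in vitrification II than in vitrification I. The filled points are RBM3 in the 3 comparisons that involve vitrification I.

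A rank within a library, and a plain ratio of 2 FPKM values, do not depend on how the library was scaled. The percentages below do depend on how many genes lay above 0 FPKM. These were fewest in vitrification I (11550 to 14039, against 15383 to 18527 elsewhere). RBM3 lay above 97.9%, 98.1% and 97.25% of the genes above 0 FPKM in fresh control and 98.5% and 98.8% in vitrification. The values were 96.2%, 94.7% and 93.2% for vitrification I and 97.9%, 97.6% and 98.9% for vitrification II. Counted from the most abundant gene, it was number 182 to 423 outside vitrification I and 468 to 781 within it. The 3 vitrification I libraries thus ranked RBM3 lower than every other library. CIRBP lay above 64.2%, 81.05% and 76.9% of genes in fresh control and 81.7% and 78.8% in vitrification. The values were 61.7%, 62.0% and 52.7% for vitrification I and 62.7%, 64.9% and 75.4% for vitrification II. Vitrification I held the 3 lowest of these percentages, with vitrification II replicate 1 and control replicate 1 close above. Counted from the most abundant gene, CIRBP was number 5738, 2916 and 3546 in fresh control and 3384 and 3753 in vitrification. It was number 4723, 5333 and 5461 in vitrification I and 6048, 5408 and 3898 in vitrification II. By that count vitrification II replicate 1 and control replicate 1 stood lowest. Among genes of at least 1 FPKM, CIRBP lay above 24.4% in control replicate 1 and 34.6%, 31.6% and 19.8% in vitrification I.

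The RBM3 level in FPKM was 33.9 and 28.8 times that of CIRBP in fresh control replicates 2 and 3 and 80.5 times in replicate 1. It was 34.0 and 29.3 times in vitrification, 31.1, 23.3 and 24.1 times in vitrification I and 48.0, 44.6 and 44.1 times in vitrification II. Vitrification II was tight and lay above vitrification and vitrification I, while control replicate 1 lay above all. The log2 ratio of CIRBP to RBM3 (FPKM + 1) was -5.11 ± 0.63, -4.79 ± 0.13, -4.25 ± 0.30 and -5.26 ± 0.06 (SD) for the groups in the order fresh control, vitrification, vitrification I, vitrification II. Adding 1 makes this form of the ratio depend on the scale for a gene as low as CIRBP, and with 0.1 added instead the vitrification I mean was -4.64. Exact permutation tests over the 4 groups gave p = 0.0515 for this ratio, 0.0412 for the rank of CIRBP and 0.0173 for the rank of RBM3, and adjusted over these 3 tests each stood at 0.0515, so none passed. Without control replicate 1 all 3 passed (adjusted exact p = 0.0138, 0.0252 and 0.0370). With 0.1 added the adjusted exact p of the ratio was 0.160, and with ranks taken among genes of at least 1 FPKM that of CIRBP was 0.145. On ranks of the ratio, with all libraries, the adjusted exact p was 0.0412, which passed. A difference between the responses of the 2 genes was therefore not established in the main test, and the outcome depended on the form of the ratio.

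**Figure D3:**
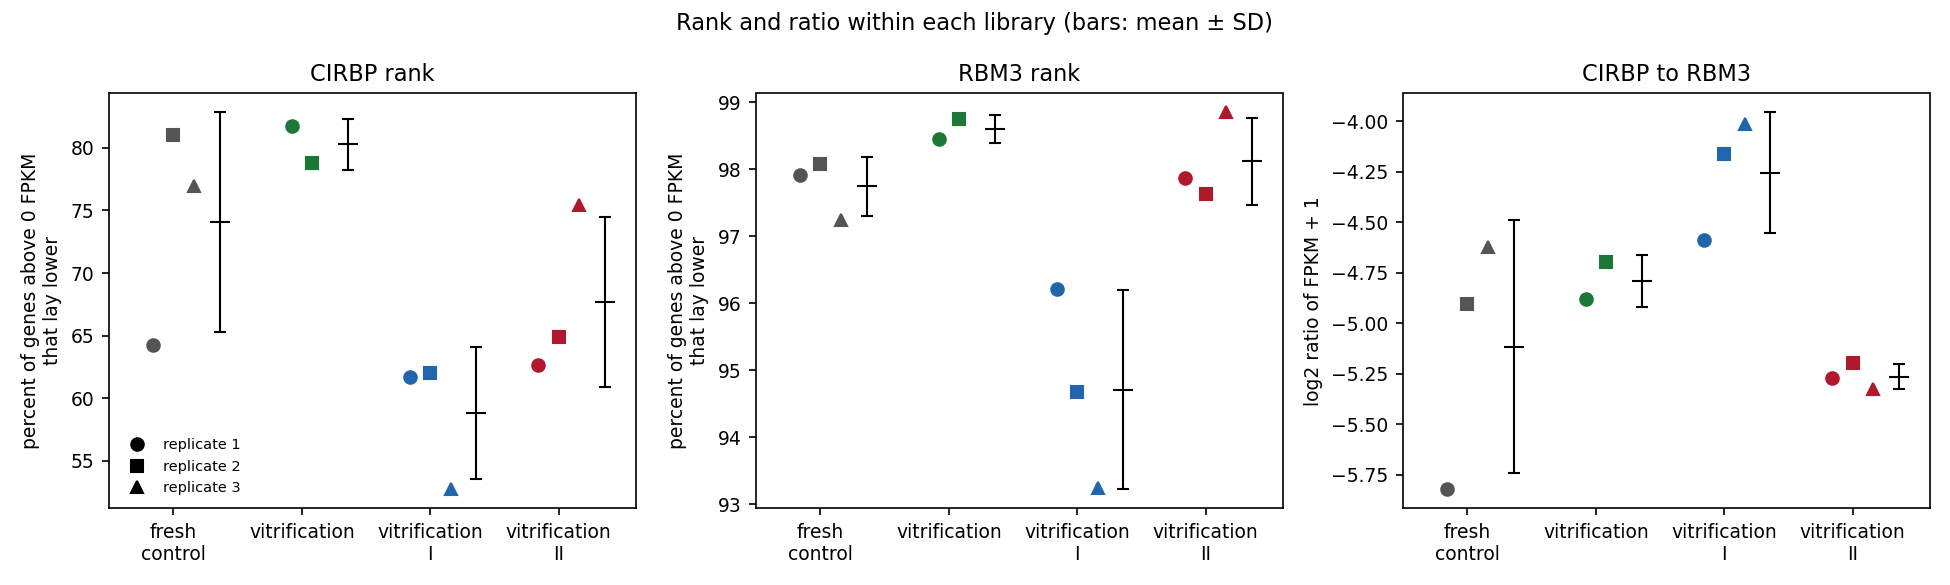
Percent of genes above 0 FPKM that lay lower than CIRBP (left) and RBM3 (middle), and log2 ratio of CIRBP to RBM3 (right), in each library by group. Symbols mark replicate numbers, bars the mean ± SD, and the vertical axes do not start at 0. RBM3 ranks in vitrification I (93.2% to 96.2%) lie under all others, and fresh control replicate 1 has the lowest ratio (-5.82).

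Other proteins with an RRM, here called relatives, gave a sense of scale. Of 21 RRM proteins listed, 18 had an identifier and all 18 passed the filter. Among these and the pair, FPKM allows a comparison of levels per length: RBM3 had the second highest mean (187 FPKM over 11 libraries) after HNRNPA1 (222 FPKM), a core hnRNP protein, and CIRBP was number 16 of 20 (5.01 FPKM). RBM3 ranked first of the 20 in each fresh control and vitrification library and in vitrification II replicate 3. It ranked second in the other vitrification II libraries and in vitrification I replicates 1 and 3, and in place 3 in vitrification I replicate 2.

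Against vitrification I, 9 of the 18 relatives were higher and 0 lower in vitrification II (limma; 0 were lower in each leave-one-out fit), with a median change of 0.85 beside 0.68 for all genes, 0.07 after quantile normalization and 0.33 after rescaling. Of all genes 34.7% were called higher and 3.75% lower, against 13.6% and 14.6% after quantile normalization and 16.5% and 7.54% after rescaling. Each list below is read against these shares. The number for the relatives was 5 without vitrification II replicate 3, 4 higher and 1 lower after quantile normalization and 4 higher after rescaling. RBM42 rose from 15.7 ± 7.45 to 83.0 ± 11.4 FPKM (SD, n = 3; log2 change 2.41 ± 0.39, adjusted p = 0.000380). RBM14, a coactivator and paraspeckle protein, rose from 0.653 ± 0.411 to 10.8 ± 5.06 FPKM (2.77 ± 0.41; adjusted p = 0.000234). RBM22, of the active spliceosome, rose from 1.21 ± 1.28 to 10.9 FPKM (2.56 ± 0.43), a call that ended with vitrification I replicate 2 alone (adjusted p = 0.0653). These genes are the 3 with the smallest F test p of the list.

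In vitrification I against fresh control the same list gave 2 higher calls (HNRNPA1 and HNRNPD) and 3 lower (RBM4, RBM14 and RBM42), with a median change of -0.10, or 0.34 after rescaling, beside 8.85% of all genes called higher and 9.77% lower. Higher calls numbered 1 without control replicate 2, control replicate 3 or vitrification I replicate 1. Lower calls numbered 1 without control replicate 1 or 2 and 0 without control replicate 3, vitrification I replicate 1 or vitrification I replicate 3. The counts were 3 higher and 0 lower after rescaling and 3 and 3 after quantile normalization. In vitrification II against fresh control 8 of the 18 were higher and 0 lower, beside 24.6% and 1.09% of all genes, while RBM3 and CIRBP were not called. That number was 3 without control replicate 2, control replicate 3 or vitrification II replicate 3, 4 without vitrification II replicate 1, 5 without vitrification II replicate 2, 4 after rescaling and 0 after quantile normalization.

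Regulators of temperature-linked splicing and transcription had 13 of 21 members, all tested, higher and 1 lower in vitrification II than in vitrification I with FPKM as deposited (61.9% higher, beside 34.7% of all genes, and 4.76% lower, beside 3.75%). Their median change was 1.12, beside 0.68. The counts were 4 and 3 after quantile normalization and 3 and 2 after rescaling. With FPKM as deposited, the higher genes included CLK1, CLK3 and CLK4 (adjusted p = 0.00816, 0.0221 and 0.0179), kinases that phosphorylate SR proteins. The other such kinases of the list were not called: CLK2 changed by -0.29, SRPK1 by -0.45 and SRPK2 by 0.27. All these kinases were named after their values were seen. SRSF2, described below, was among the 3 genes still higher after rescaling, so not all of CLK1, CLK3 and CLK4 kept their call there. Their calls under the single alternatives are not given here. Counts were 10 and 0 without vitrification I replicate 1 and 8 and 0 without vitrification II replicate 3. SRSF2, an SR protein, stood at 0.924 ± 0.469 FPKM in vitrification I and 9.67 ± 7.14 in vitrification II (log2 change 2.26 ± 0.47, adjusted p = 0.00202), and it fell in vitrification I against fresh control (6.58 ± 1.66 FPKM) by 1.98 ± 0.47. That fall was not called with no filter (adjusted p = 0.0673) or with vitrification I replicate 2 alone (0.112). HNRNPH1, an hnRNP protein that acts on splicing, rose from 9.23 ± 1.72 to 46.3 ± 28.5 FPKM (2.05 ± 0.45, adjusted p = 0.00290), but not with vitrification I replicate 2 alone (0.0895). SFPQ, a paraspeckle protein, ran the other way, from 20.2 ± 6.54 to 7.28 ± 2.84 FPKM (-1.37 ± 0.41, adjusted p = 0.0165). That call ended without vitrification I replicate 1 (0.0716), without vitrification II replicate 3 (0.0775) and with no filter (0.0546). SFPQ stood at 4.04 ± 0.854 FPKM in fresh control and 16.3 ± 9.31 in vitrification. Against fresh control it was higher in vitrification I (2.04 ± 0.41, adjusted p = 0.00424) and not called in vitrification II (0.67 ± 0.41, adjusted p = 0.234). With vitrification I replicate 2 alone, neither SFPQ call was kept (changes of -1.22 against vitrification I and 1.89 against fresh control).

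Of 7 tested proteins that act on the pair, 3 were higher and 0 lower in vitrification II than in vitrification I (42.9% higher, near the 34.7% of all genes), with a median change of 0.43, below that of all genes, and of -0.12 and -0.18 after quantile normalization and rescaling. PRMT1, the main enzyme for asymmetric arginine methylation, including that of CIRBP, stood at 26.8 ± 5.15 FPKM in fresh control, 18.1 ± 6.88 in vitrification, 6.19 ± 3.93 for vitrification I and 74.9 ± 37.9 for vitrification II. It was 3.41 ± 0.48 higher in vitrification II than in vitrification I (adjusted p = 0.000161). Its fall of 2.09 in vitrification I against fresh control (adjusted p = 0.00930) was not called with no filter (0.0675) or with vitrification I replicate 2 alone (0.276). EIF4G1, the translation initiation scaffold, rose from 6.65 ± 2.82 to 30.6 ± 5.77 FPKM between vitrification I and II (2.09 ± 0.36, adjusted p = 0.000570; 0.0511 with vitrification I replicate 2 alone). TNPO1, the transportin that imports CIRBP into the nucleus, had a pattern unlike RBM3. It rose from 2.89 ± 1.18 FPKM in fresh control to 18.5 ± 6.46 in vitrification I (2.31 ± 0.37, adjusted p = 0.00116) and stood at 24.2 ± 1.65 in vitrification II.

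Other proteins that share a cold shock domain belong to a separate family. Of 8 listed 6 were tested, and 2 were higher and 0 lower in vitrification II than in vitrification I (33.3% higher, near the 34.7% of all genes; median 1.03, 0.34 after quantile normalization and 0.61 after rescaling), with 1 higher without vitrification I replicate 3, vitrification II replicate 1 or vitrification II replicate 2. LIN28A, which blocks let-7 processing and is also on the inner cell mass list, stood at 7.63 ± 1.64 FPKM in fresh control, 1.96 ± 1.59 in vitrification, 0.830 ± 0.723 for vitrification I and 50.6 ± 28.9 for vitrification II. Its difference between the last 2 groups was 4.73 ± 0.47 (adjusted p = 2.43e-05). YBX3 had 2.07 ± 2.76, 8.95 ± 5.60, 4.23 ± 2.62 and 11.9 ± 2.27 FPKM in the same order of groups.

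Among mRNAs described as bound or stabilised by CIRBP or RBM3, 6 of 10 were tested and 2 were higher in vitrification II than in vitrification I, HIF1A and CCNE1, with 0 lower. This is 33.3% of those tested, near the 34.7% of all genes. The number was 1 without vitrification I replicate 3 or vitrification II replicate 1, and 0 after either rescaling or quantile normalization. HIF1A, the hypoxia-inducible factor, rose from 9.36 ± 4.90 to 29.7 FPKM (1.61 ± 0.40, adjusted p = 0.00594). It was not called after quantile normalization (0.0863), after rescaling (0.0801) or with vitrification I replicate 2 alone (0.266). CCNE1, cyclin E1, stood at 1.45 ± 1.32 and 6.09 ± 3.25 FPKM (1.63 ± 0.47, adjusted p = 0.0141). Its call ended without vitrification I replicate 3 (0.0713), without vitrification II replicate 1 (0.0670), with no filter (0.0806), after quantile normalization (0.163), after rescaling (0.0831) and with vitrification I replicate 2 alone (0.161). PTGS2, the inducible cyclooxygenase, stood at 58.3 ± 41.1 FPKM in fresh control, 264 ± 87.1 in vitrification, 369 ± 231 for vitrification I and 652 ± 203 for vitrification II. It rose in vitrification I against fresh control (2.77 ± 0.55, adjusted p = 0.00380), where RBM3 fell, though not with no filter (0.0524) or with vitrification I replicate 2 alone (0.112).

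Stress granule proteins, with which CIRBP associates, had 8 of 17 members higher and 1 lower in vitrification II than in vitrification I (47.1% higher, beside 34.7% of all genes, and 5.88% lower, beside 3.75%). Their median change was 0.95, beside 0.68, and the counts were 5 and 4 after quantile normalization and 5 and 3 after rescaling. UBAP2L, which nucleates these granules, rose from 9.87 ± 3.56 to 61.4 ± 5.58 FPKM (2.57 ± 0.38, adjusted p = 0.000227). FXR2, of the fragile X protein family, rose from 0.978 ± 0.392 to 10.7 ± 3.88 FPKM (2.54 ± 0.37, adjusted p = 0.000203). PABPC1, the cytoplasmic poly(A)-binding protein, had another order, with 54.3 ± 13.3 FPKM in fresh control, 321 ± 111 in vitrification, 161 ± 22.8 for vitrification I and 100.3 ± 29.1 for vitrification II. Against fresh control it rose in vitrification by 2.53 ± 0.39 (adjusted p = 0.0129) and in vitrification I by 1.57 ± 0.35 (adjusted p = 0.00768). The call in vitrification ended without control replicate 2 or without vitrification replicate 2. With vitrification I replicate 2 alone the change in vitrification I was 1.79 and not called.

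Clock genes were tested because CIRBP binds the CLOCK mRNA. Of 13 listed 7 were tested, and 2 were higher and 0 lower in vitrification II than in vitrification I (28.6% higher, under the 34.7% of all genes; median 0.67, -0.07 after quantile normalization and 0.25 after rescaling), 1 without vitrification I replicate 3 or vitrification II replicate 3. The repressor CRY1 stood at 1.57 ± 0.940 and 4.71 ± 1.13 FPKM (1.19 ± 0.34, adjusted p = 0.0130) and CRY2 at 0.159 ± 0.0627 and 2.56 ± 0.946 FPKM (1.59 ± 0.31, adjusted p = 0.00146). The call of CRY1 ended without vitrification I replicate 3 (0.0550), without vitrification II replicate 3 (0.0508), after quantile normalization (0.267), after rescaling (0.134) and with vitrification I replicate 2 alone (0.366). For CRY2 it ended after quantile normalization (0.0566) and with vitrification I replicate 2 alone (0.0639). CSNK1E, a kinase of the clock, stood at 3.34 ± 2.07 FPKM in fresh control, 9.60 ± 4.22 in vitrification, 9.35 ± 3.50 for vitrification I and 12.6 ± 4.07 for vitrification II.

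Heat shock genes are the counterpart of the pair in warm cells. With FPKM as deposited, most of those called between vitrification I and II went the same way as RBM3. Of 14 tested, 7 were higher and 1 (HSPA5) lower in vitrification II than in vitrification I (50.0% higher, beside 34.7% of all genes, and 7.14% lower, beside 3.75%). Their median change was 1.06, beside 0.68, and the counts were 5 and 2 after quantile normalization and 2 and 2 after rescaling. HSPA8, the constitutive cytosolic HSP70, rose from 662 ± 218 to 2160.1 ± 199.8 FPKM (1.75 ± 0.33, adjusted p = 0.00110; 0.0928 with vitrification I replicate 2 alone). HSPA4, an exchange factor for HSP70, rose from 40.8 ± 3.77 to 111 ± 17.8 FPKM (1.41 ± 0.35, adjusted p = 0.00600). The HSPA4 call ended after rescaling (0.142) and with vitrification I replicate 2 alone (0.0865). HSPH1, of the same family, stood at 26.0 ± 2.11, 39.8 ± 0.610, 52.0 ± 14.2 and 97.5 ± 30.6 FPKM in the 4 groups from fresh control to vitrification II.

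Genes whose levels followed the pair most closely were sought among the 4101 genes with a symbol and a mean of at least 5 FPKM, by Pearson r of log2(FPKM + 1) over the 11 libraries. These values describe the libraries, which share their groups and scaling, and they carry no test. RBM3 was most like DCTN2, a dynactin subunit (r = 0.947). Next came GPX1, the cytosolic glutathione peroxidase (0.937), the lysosomal protease CTSH (0.933), ZFP36, which promotes decay of AU-rich mRNAs (0.918), and the DNA damage gene GADD45A (0.913). DCTN2 stood at 35.2 ± 6.97, 38.3 ± 1.67, 15.1 ± 4.61 and 43.7 ± 11.4 FPKM from fresh control to vitrification II, the same order of groups as RBM3. ZFP36 ran from 5.13 ± 3.16 FPKM in vitrification I to 57.6 ± 22.8 in vitrification II. CIRBP was most like RHOF (0.883). It was followed by ANXA11, an annexin (0.875), SLC44A2, a choline transporter-like protein (0.871), the vitamin B12 carrier TCN2 (0.853) and the cytoskeletal linker TLN2 (0.848). TCN2 stood at 9.64 ± 6.67, 13.3 ± 1.02, 3.80 ± 2.68 and 13.1 ± 1.67 FPKM. The pair resembled each other less than these genes did (r = 0.813): of the 9410 other genes tested RBM3 was number 31 in likeness to CIRBP, and CIRBP number 235 in likeness to RBM3.

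**Figure D4:**
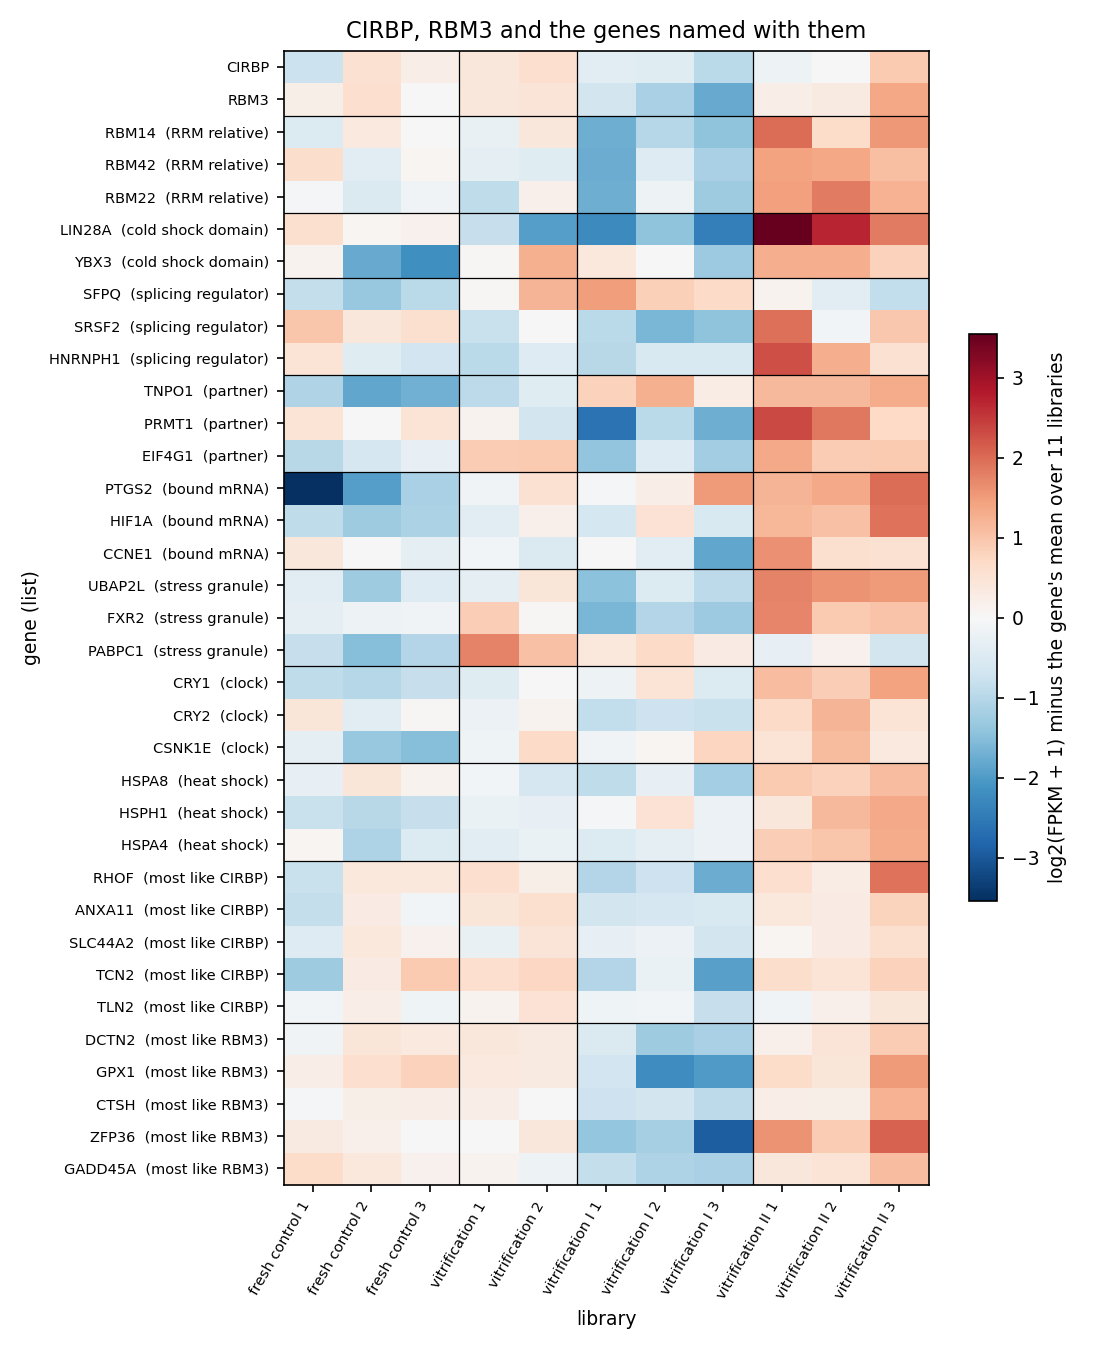
Log2(FPKM + 1) of each named gene minus its mean over the 11 libraries (colour), with genes in rows by list and libraries in columns by group. RBM3 is low in all 3 vitrification I libraries, as are RBM14, LIN28A and PRMT1. LIN28A is also low in vitrification, and TNPO1 is low in fresh control and, to a lesser degree, in vitrification.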

How the data were processed

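Members and gene lists were chosen with earlier results of these data known. The deposited table holds FPKM as made by the authors, 1 column per library. FastQC, TopHat2 2.0.13, Cufflinks 2.2.1 and DESeq2 are listed without roles, per the submitters' processing notes; the genome build is not given in the sources used here. Of 12 libraries described, 11 have a column that was used. Vitrification replicate 3 was not analysed here, which leaves 2 libraries in that group. No column was left without a sample, and 0 pairs of libraries were identical. Of 31781 identifiers, 15347 had a symbol.

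Log2(FPKM + 1) was fitted with limma 3.58.1 (R 4.3.3; 1 mean per group, mean-dependent prior, all 11 libraries), for genes of at least 1 FPKM in at least 3 libraries. Fold changes on this scale understate those of low genes such as CIRBP. Adjusted p-values are Benjamini-Hochberg over 9411 genes, two-sided. The fit was run on simulated independent normal values with changes larger than those estimated for RBM3. That run checked the code and does not bear on the calls given here. Exact permutation tests enumerated all 92400 arrangements of the libraries over the 4 groups; between 2 groups they cannot go below 0.1. Named list genes are the 3 of each list with the smallest F test p, and other list members that are named were chosen after their values were seen. The result for 1 gene that this rule names is not reported here. Alternatives were a pseudocount of 0.1, no filter, 2 scalings, 2 groups only, a replicate block and each library left out. Vitrification I replicate 2 alone was added after seeing the data, as were all alternatives for the list genes.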

Additional observations from a re-analysis of the deposited data

How the results depend on the processing

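RBM3 kept its call between vitrification II and vitrification I under each of 18 alternatives, and in the F test under 16 of 17, the exception being vitrification I replicate 2 alone (adjusted p = 0.0760). For RBM3, the change in vitrification I against fresh control was -1.73 to -1.16 with 1 library left out, -1.46 with no filter, -0.97 after rescaling to the non-mitochondrial total and -1.40 with vitrification I replicate 2 alone, and the call ended under the last 3. Against vitrification it was -1.89 to -1.32 with 1 library left out, -1.62 with no filter, -1.39 after rescaling and -1.56 with vitrification I replicate 2 alone, none of the last 3 called. The cause was not tested. Uncalled estimates changed sign for CIRBP in vitrification II against fresh control (-0.60 after quantile normalization; -0.14 to 0.51 with 1 library left out, with -0.14 without control replicate 1 and -0.10 without vitrification II replicate 3). They also did for RBM3 in vitrification II against vitrification (-0.19 after quantile normalization, -0.18 after rescaling, and -0.14 to 0.43 with 1 library left out, -0.14 without vitrification II replicate 3).

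With the replicate number as a block, RBM3 in vitrification I against vitrification was -1.60 and no longer called (adjusted p = 0.0808), and no other call of the pair changed. The numbers showed no sign of pairing the samples. Deviations of same-numbered libraries from their group means correlated at -0.16 to 0.14 over 15 pairs, 2 of them over 0.1. Of 11 libraries, 3 correlated best with a library of their own number. Such deviations are tied to each other within groups this small, so the check cannot exclude pairing.

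Adjusted exact p for the ratio of the pair was 0.160 with a pseudocount of 0.1, 0.0412 on ranks and 0.0138 to 0.165 with 1 library left out. For the rank of CIRBP it was 0.145 among genes of at least 1 FPKM and 0.0252 to 0.149 with 1 library left out, and for that of RBM3 0.0515 and 0.0370 to 0.0798.

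Counts of called genes, the background of each comparison, moved more than those of the members. For vitrification against fresh control (129) they were 68 with a pseudocount of 0.1, 656 with no filter, 55 with the block, 3 with 2 groups only and 0 to 207 with 1 library left out. For vitrification I against fresh control (1752) they were 906 with no filter and 832 to 2029. For vitrification II against fresh control (2422) they were 1419 with no filter, 676 after quantile normalization, 1306 after rescaling and 1017 to 2715. For vitrification I against vitrification (530) they were 921 with no filter, 296 with the block and 5 to 822. For vitrification II against vitrification (563) they were 48, 944, 330, 98 and 1125 with a pseudocount of 0.1, no filter, quantile normalization, rescaling and 2 groups only, and 10 to 928 with 1 library left out. For vitrification II against vitrification I (3614) the count was 2263 after rescaling. Among called genes, the share higher was 47.5%, 52.5% and 73.0% in vitrification I against fresh control and 21.5%, 48.3% and 34.7% in vitrification I against vitrification, with FPKM as deposited, quantile normalization and rescaling. In the same order it was 91.5%, 70.4% and 96.5% in vitrification against fresh control, 95.7%, 57.2% and 91.2% in vitrification II against fresh control, and 84.4%, 37.9% and 41.8% in vitrification II against vitrification.

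Of 17 named list genes called between vitrification II and vitrification I, 7 kept their call under all alternatives, and of 11 called in vitrification I against fresh control 2 did. Where a group is left with 1 library, that library is assumed to vary like the others. Depth is unknown, so no detection limit can be given for CIRBP, whose low level also makes it the less precise of the pair.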
